A study of Mus musculus with 17 samples.

Results

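The libraries labelled Atf3KO and JunDKO were compared directly with each other, to ask which transcripts depended on ATF3 alone, which on JUND alone, and which on both. The comparison held 4 of the 17 samples of the series, 2 Atf3KO and 2 JunDKO polyA RNA-seq libraries, and 2 Scramble libraries served as the reference level only. Gene models of at least 200 bases with a mean of at least 1 RPKM (exonic reads scaled to the length of the model and the size of the library) over the 8 libraries of the same cells were tested, which left 10414 of 24453 models, 10067 of them protein-coding. At the edges of these limits, Nr4a2 entered with a mean of 1.00 RPKM and Intu stayed out with 0.999 RPKM, and Snord17 entered with 220 bases while Snora81 stayed out with 163 bases.

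All groups were iBMDMs, bone marrow-derived macrophages of C57Bl/6EiJ mice labelled male, immortalised with retrovirus carrying Myc and BRAF(V600E) and expressing Cas9 with EGFP. Each group carried a lentivirus with a pair of guide RNAs and the marker tagBFP2, against Atf3 (Atf3KO), against Jund (JunDKO) or a control (Scramble, zsGreen in the sample titles), and all received vehicle (PBS). Cells were sorted for tagBFP2, which marks infection and not the edit, so each library was a sorted pool and no clone. An overexpressed MYC and an active BRAF were present in the control as well as in both knockouts. The 2 JunKO libraries of the same cells entered the fit for the estimate of spread and are described only where named. Separate cultures are not stated for the replicates, so the p-values measure the spread between 2 libraries a group, which may be technical.

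ATF3 and JUND are basic leucine zipper proteins. They bind DNA in pairs, with each other or with other members of the AP-1 and ATF/CREB families, at AP-1 sites or at the related cyclic AMP response elements, and the partner decides which of these sites is preferred and whether transcription is raised or lowered. ATF3 is known as a stress-induced factor that often represses, and JUND as the Jun protein that is present in resting cells. In bulk RNA, fewer cells that carry a transcript and less of it per cell cannot be told apart.

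The library totals to which RPKM was scaled, recovered from the values, were 4397162 and 7236857 in Atf3KO, 1553296 and 18444454 in JunDKO, and 1929988 and 1711541 in Scramble. Exonic reads made up 81.1% to 84.2% of these totals. At these depths the Atf3KO libraries held reads in 10425 and 10631 models, against 11884 to 12533 in the other 6 libraries, although only 1 of those 6 was deeper than the Atf3KO libraries. Atf3KO replicate 2 carried a later date in its title than the other 7 libraries, and a date cannot be told apart from a replicate here. All 10 macrophage markers of the list used (among them Lyz2, Cd68 and Csf1r) passed the level filter, with summed levels of 24208 and 33270 RPKM in Atf3KO and of 17086 and 17675 RPKM in JunDKO. Itgam, the integrin CD11b, was the 1 member called different, against 12.3% of all tested models. Its log2 difference of 1.08 ran from 0.82 to 1.43 over 26 alternative analyses, and its call was kept in 24. Markers of fibroblasts, T cells, B cells, dendritic cells, mast cells and of erythroid and endothelial cells had no tested member, and their sums reached at most 1.01 RPKM in any Atf3KO, JunDKO or Scramble library. Among 9 neutrophil and progenitor markers 1, S100a8, was tested.

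The exonic levels of the targeted genes do not check an edit. The study checked knockout efficiency by western blot, a measure of protein and not of RNA. Atf3 was at 154 and 169 RPKM in Atf3KO, at 84.6 and 87.7 RPKM in JunDKO and at 80.7 and 77.4 RPKM in Scramble. The libraries labelled Atf3KO thus held more Atf3 RNA than either other group, with a log2 difference to JunDKO of 0.90 ± 0.17 (SE, n = 2 each, limma-trend adjusted p = 0.00236) that stayed under the 2-fold limit. Jund was at 22.6 and 83.0 RPKM in Atf3KO, at 6.94 and 6.07 RPKM in JunDKO and at 9.19 and 8.33 RPKM in Scramble. JunDKO was the lowest group for Jund, but by little against Scramble, and the difference between the knockouts, 2.57 ± 0.46 on the log2 scale (limma-trend adjusted p = 0.00207), came mostly from the high Atf3KO level. The Jund difference was 1.66 without Atf3KO replicate 2, 1.59 with the GC trend of each library removed and 1.23 with both.

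A gene was called when its limma-trend adjusted p was under 0.05, its difference on the log2(RPKM + 1) scale was at least 2-fold and its mean was at least 16 RPKM in either knockout. By this rule 1282 models, 12.3% of those tested, differed between the knockouts, 577 (5.54%) higher in Atf3KO and 705 (6.77%) lower in Atf3KO. Against Scramble, 12.6% of the models were called in Atf3KO and 5.16% in JunDKO, and these comparisons share the Scramble libraries with each other. The study, with edgeR on reads, reported the opposite order, more genes in its JunD than in its ATF3 knockout. Why the orders differ was not tested. Among the 5133 models at 16 RPKM or more in either knockout, which alone could be called, the share was 25%. The gene lists below are set beside the shares of all tested models, but lists differ in how many members could be called. For example, 13 of 13 tested members of the unfolded protein response list reached that level, and 4 of 13 cytokines and inflammatory mediators. The median difference over all tested models was -0.14 on the log2 scale, and the levels of the 2 groups did not overlap in 7538 models (72.4%).

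The libraries differed in how their levels depended on GC content, and this moved with the direct comparison. Spearman's rho between a model's GC content and its level relative to the other libraries, across models and given as a description, was 0.27 and 0.67 in Atf3KO, -0.11 and -0.35 in JunDKO, and -0.15 and -0.51 in Scramble. Among the quintile of models lowest in GC (32.7% to 44.1%), 22 were called higher in Atf3KO and 324 lower, while in the quintile highest in GC (55.5% to 70.9%) 298 were called higher and 14 lower. After a smooth GC trend was removed from each library, 893 of 10388 models (8.6%) were called, and 60.8% of them were higher in Atf3KO, against 45.0% with the deposited levels. Then 107 were higher and 74 lower in the lowest quintile and 117 higher and 46 lower in the highest. Called by both were 670 models (6.43%), 361 higher (3.47%) and 309 lower (2.97%), and none was called in opposite directions. What a GC trend and a true difference each contribute cannot be told apart, so genes named below that were called with deposited levels and not after GC removal are said to be so beside their call.

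**Figure D1:**
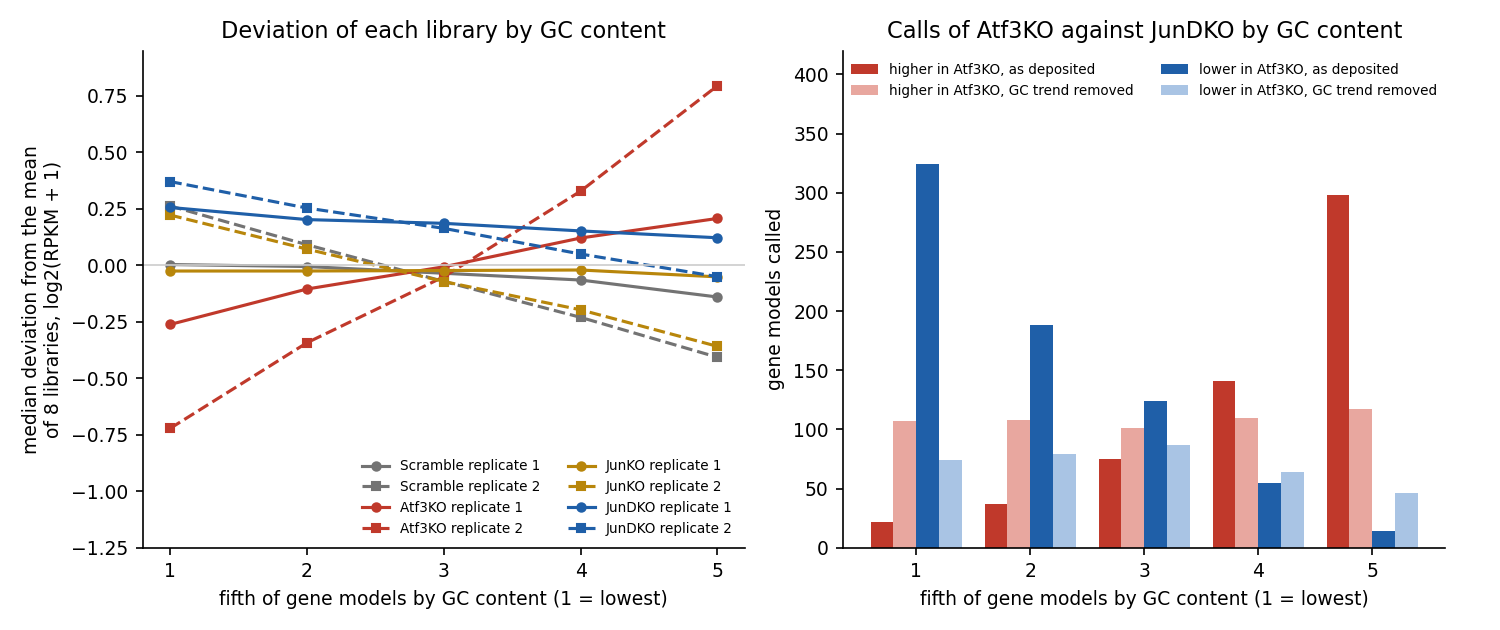
By quintile of exonic GC content, the left panel shows each library's median deviation from the mean of the 8 libraries on the log2(RPKM + 1) scale, and the right panel the number of models called between Atf3KO and JunDKO in each direction, with deposited levels and after the GC trend was removed. Calls lower in Atf3KO drop from 324 to 14 and calls higher climb from 22 to 298 across the quintiles with deposited levels.

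Called genes were then placed by their levels against Scramble. A gene was taken to move in 1 knockout alone when that knockout differed from Scramble by at least 2-fold with an adjusted p under 0.05 and the other stayed within 1.5-fold. Atf3KO alone was lower for 300 genes and higher for 265, JunDKO alone was lower for 77 and higher for 69, and 29 genes lay at least 2-fold on opposite sides of Scramble, 16 of them higher in Atf3KO and 13 higher in JunDKO. The remaining 542 called genes fell between these classes. Opposite sides were judged by the 2-fold differences from Scramble alone, without an adjusted p for either knockout. The classes are a description of called genes, and a level within 1.5-fold does not show that a factor has no effect. The word alone compares Atf3KO with JunDKO only, since JunKO did not enter the classes. The other knockout's 95% interval lay wholly within 2-fold of Scramble for 255 of the 300 genes lower in Atf3KO alone (85%), 149 of the 265 higher (56.2%), 61 of the 77 lower in JunDKO alone (79.2%) and 49 of the 69 higher (71.01%).

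With the GC trend removed the 4 classes held 142, 180, 117 and 42 genes in the same order, and 108, 93, 52 and 29 genes were in a class both ways. Atf3KO alone thus went from 565 genes to 322, with 201 in common, and JunDKO alone from 146 to 159, with 81 in common. The median GC content was 43.7% for the genes lower in Atf3KO alone, 56.9% for those higher, 52.3% for those lower in JunDKO alone and 47.7% for those higher, against 49.9% for all tested models. The class higher in Atf3KO alone also rested on single libraries: it held 149 genes without Atf3KO replicate 2, 485 without Atf3KO replicate 1 and 174 without JunDKO replicate 2. The class higher in JunDKO alone held 43 genes without JunDKO replicate 1 and 45 without JunDKO replicate 2. With equal library medians it held 36 genes, and the class lower in JunDKO alone held 116. With a pseudocount of 5 RPKM, 178 genes were lower in Atf3KO alone, and 5 and 2 genes were on opposite sides with the higher level in Atf3KO and in JunDKO. For these 16 and 13 genes the counts were 13 and 6 after GC removal (10 and 5 in common), 26 and 17 without Atf3KO replicate 1, 24 and 23 with models of any length, 25 and 17 with limma-voom, 16 and 5 with quantile normalization, and 17 and 8 with equal library medians.

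**Figure D2:**
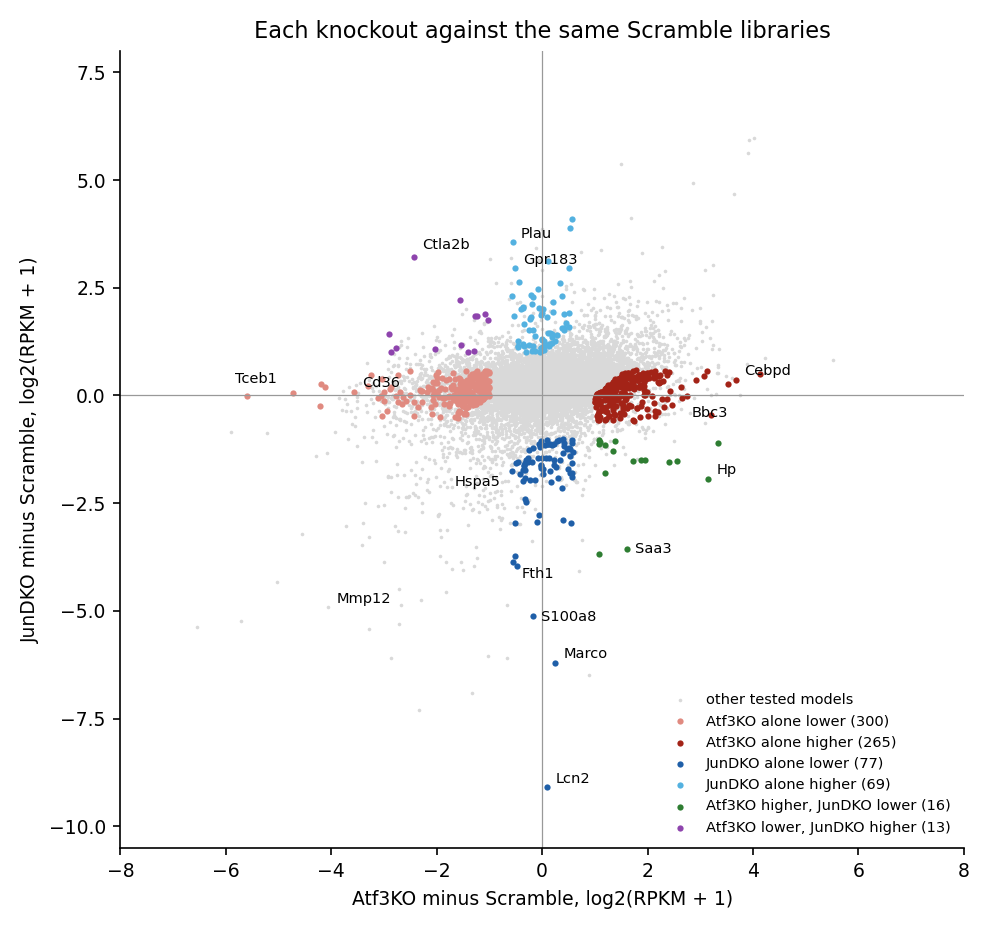
The difference from Scramble in JunDKO against that in Atf3KO, both on the log2(RPKM + 1) scale, for tested models, with the called genes of each class in colour. Lcn2 and Marco lie far below 0 for JunDKO and near 0 for Atf3KO, Cd36 and Tceb1 the other way round, and both axes share the Scramble libraries.

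The genes lower in JunDKO alone were led by Lcn2, Marco and S100a8, which code for proteins of innate defence. Lcn2 encodes lipocalin-2, which binds the siderophores with which bacteria take up iron. Its level was 1123 and 1223 RPKM in Atf3KO, 3.05 and 0 RPKM in JunDKO, and 1305 and 929 RPKM in Scramble. Both Atf3KO libraries lay within the Scramble range while JunDKO held almost none, and the log2 difference between the knockouts was 9.19 ± 0.51 (SE, limma-trend adjusted p = 8.04e-06). For Atf3KO against Scramble it was 0.09 with a 95% interval from -1.05 to 1.23, so a change of 2-fold in either direction was within error.

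Marco, a scavenger receptor that binds bacteria and particles, was at 573.5 and 683.1 RPKM in Atf3KO, at 5.57 and 6.92 RPKM in JunDKO, and at 557 and 503 RPKM in Scramble. The groups did not overlap, and the difference of 6.44 ± 0.18 on the log2 scale had the narrow interval that 2 close libraries a group give (limma-trend adjusted p = 1.71e-07). For Atf3KO against Scramble the difference was 0.24 (95% interval -0.17 to 0.65). S100a8, a subunit of calprotectin, was at 41.1 and 21.8 RPKM in Atf3KO and at 34.8 and 33.2 RPKM in Scramble, and no read was recovered in either JunDKO library. Against a floor of 3 reads over the JunDKO libraries together, its level was at least 75.1-fold higher in Atf3KO. This bound covers counting error only and leans on the deep JunDKO replicate 2.

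**Figure D3:**
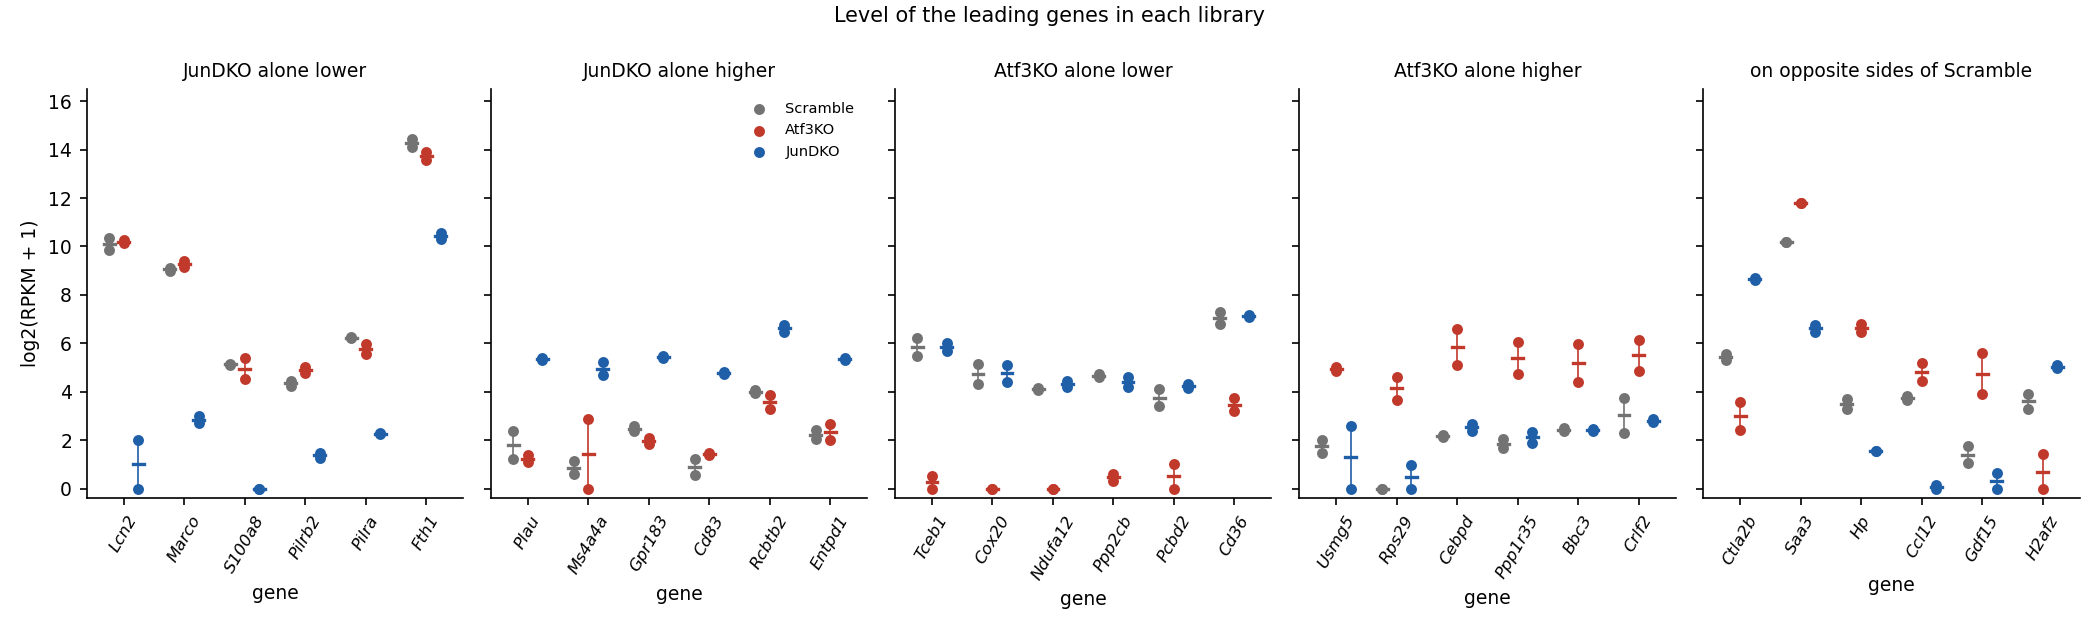
Levels as log2(RPKM + 1) of the leading genes of each class in the 2 Scramble, 2 Atf3KO and 2 JunDKO libraries, with 1 point a library, a bar at the mean and a line over the range. Marco stands at 557, 503, 573.5 and 683.1 RPKM in Scramble and Atf3KO and at 5.57 and 6.92 RPKM in JunDKO, while Cd36 stands at 12.3 and 8.29 RPKM in Atf3KO and at 135 and 145 RPKM in JunDKO.

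Other genes lower in JunDKO alone were C3, the central complement protein, at 208 and 231 RPKM in Atf3KO against 22.2 and 20.9 RPKM in JunDKO (log2 difference 3.29), and the paired immunoglobulin-like receptor genes Pilra (3.49) and Pilrb2 (3.51). Pilra and Pilrb2 are near copies of neighbouring genes, and reads may have been split between such copies. Fth1, the ferritin heavy chain that stores iron, was at 12135 and 15271 RPKM in Atf3KO, at 1484 and 1256 RPKM in JunDKO, and at 22402 and 17582 RPKM in Scramble. Its difference between the knockouts was 3.32 ± 0.25 (limma-trend adjusted p = 3.1e-05). After GC removal the difference was 3.27 and still called, but Atf3KO was no longer within 1.5-fold of Scramble, so Fth1 left the class, as did Pilrb2. Itgb2, the shared chain of the leukocyte integrins, and Tgfbi, a secreted matrix protein, were in the class with log2 differences of 1.42 and 2.37, Itgb2 with deposited levels only.

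Genes of the unfolded protein response were lower in JunDKO than in Atf3KO. This response is switched on when unfolded proteins gather in the endoplasmic reticulum, and it raises the chaperones and folding enzymes of that compartment, partly through ATF6 and XBP1 at a promoter sequence called the ER stress element. All 13 tested members of the list had a positive difference, and 9 were called higher in Atf3KO than in JunDKO and none lower. After GC removal 11 were called higher, among them the same 9. The median of the 13 members was 1.39 on the log2 scale, against -0.14 for all tested models (1.82 against 0.03 after GC removal). The median of the list against Scramble was 0.30 in Atf3KO and -1.28 in JunDKO. Of the 9 called genes, Calr, Dnajc3, Hspa5, Manf, Pdia4 and Pdia6 were lower in JunDKO alone, Herpud1 and Sdf2l1 lay on opposite sides of Scramble, and Creld2 fell between the classes. After GC removal Pdia4 left the class lower in JunDKO alone and Creld2 joined it. Among all tested models 5.54% were called higher in Atf3KO.

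Hspa5 encodes BiP, the main chaperone of the endoplasmic reticulum. It was at 1627 and 1253 RPKM in Atf3KO, at 425 and 522 RPKM in JunDKO, and at 1631 and 1933 RPKM in Scramble, and the log2 difference between the knockouts was 1.597 ± 0.23 (limma-trend adjusted p = 0.000601). JunDKO lay below every Atf3KO and Scramble library. Calr, the lectin chaperone calreticulin, was at 1397 and 1343 RPKM in Atf3KO and at 605 and 720 RPKM in JunDKO (log2 difference 1.05, limma-trend adjusted p = 0.00241), with 1348 and 1521 RPKM in Scramble. The Calr difference ran from 0.73 to 1.22 over 26 alternatives, and its call was kept in 24. The disulfide isomerase genes Pdia4 and Pdia6 differed by 1.68 and 1.39, and Dnajc3, a co-chaperone of BiP, by 1.18. Manf, a secreted ER stress protein, was at 218 and 196 RPKM in Atf3KO, 37.7 and 50.8 RPKM in JunDKO and 164 and 171 RPKM in Scramble, a log2 difference of 2.21 ± 0.20 (limma-trend adjusted p = 7.04e-05).

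Herpud1 and Sdf2l1 were below Scramble in JunDKO and above it in Atf3KO. Herpud1, which takes part in the degradation of ER proteins, was at 149 and 173 RPKM in Atf3KO, 14.9 and 17.2 RPKM in JunDKO and 44.5 and 52.1 RPKM in Scramble, with a log2 difference of 3.25 ± 0.20 (limma-trend adjusted p = 1.13e-05). Sdf2l1, an ER chaperone component, was at 287 and 493 RPKM, 33.9 and 32.9 RPKM, and 116 and 80.0 RPKM in the same order, a log2 difference of 3.45 ± 0.27 (limma-trend adjusted p = 3.39e-05). In both genes the 3 groups did not overlap. Of the members not called, Hsp90b1, the ER form of HSP90, had a difference of 0.95 and was called after GC removal (1.61).

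The promoters of these genes are shown because the ER stress element was found in 6 of the 12 list members that could be matched to a promoter. Sequences are from RefSeq (GRCm38.p6), 5′ to 3′ on the strand of the gene, with the element in capitals (CCAAT, then 9 bases of any kind, then CCACG, searched on both strands from 250 bases before to 50 after the start; a run beginning CGTGG is the element on the other strand).
Hspa5, chr2:34772005-34772073 (+): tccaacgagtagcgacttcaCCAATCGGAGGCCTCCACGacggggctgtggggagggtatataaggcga
Calr, chr8:84847045-84847113 (-): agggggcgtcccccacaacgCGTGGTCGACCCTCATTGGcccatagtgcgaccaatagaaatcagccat
Pdia6, chr12:17266471-17266539 (+): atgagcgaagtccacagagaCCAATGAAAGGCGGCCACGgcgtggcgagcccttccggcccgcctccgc
Creld2, chr15:88819500-88819568 (+): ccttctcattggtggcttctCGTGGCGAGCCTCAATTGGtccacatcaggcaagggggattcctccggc
Dnajc3, chr14:118937807-118937875 (+): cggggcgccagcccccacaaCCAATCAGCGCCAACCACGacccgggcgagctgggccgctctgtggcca
Hsp90b1, chr10:86705503-86705676 (-): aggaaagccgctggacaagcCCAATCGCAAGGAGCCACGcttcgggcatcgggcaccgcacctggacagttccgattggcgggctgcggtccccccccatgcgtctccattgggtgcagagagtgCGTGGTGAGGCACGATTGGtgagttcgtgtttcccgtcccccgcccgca
Derl3, chr10:75893222-75893290 (+): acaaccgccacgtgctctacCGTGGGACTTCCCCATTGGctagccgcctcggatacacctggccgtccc
Of all 8197 tested models matched to a promoter, 13 (0.159%) held the element. Of these 13, 6 were called higher in Atf3KO, all 6 also after GC removal, against 5.54% and 3.47% of all tested models. None was called lower, and 9 had a positive difference. Derl3, which is not in the list and was chosen after its values were seen, encodes a factor of ER protein degradation. It was at 13.5 and 18.6 RPKM in Atf3KO and at 1.95 and 1.76 RPKM in Scramble, and no read was recovered in JunDKO, so its level was at least 148-fold higher in Atf3KO against the floor of 3 reads. Without Atf3KO replicate 2 the log2 difference of Derl3 was 3.86 against 4.08 with it, and its level fell short of the 16 RPKM needed for a call. A match to the element is a description of the sequence, not evidence that a factor binds there.

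Part of glycolysis was lower in JunDKO alone as well. Among 23 tested members of the glycolysis and pentose phosphate list 21 had a positive difference, and 6 were called higher in Atf3KO than in JunDKO and none lower, all 6 of them lower in JunDKO alone with deposited levels. After GC removal 5 were called, and Pgk1, Eno1 and Tpi1 were still in that class. Over all tested models 5.54% were called higher. The list's median was 0.81 (0.64 after GC removal), with medians against Scramble of -0.23 in Atf3KO and -1.07 in JunDKO. Aldoa, the aldolase of glycolysis, was at 1195 and 1752 RPKM in Atf3KO, at 517 and 449 RPKM in JunDKO, and at 1572 and 1369 RPKM in Scramble, a log2 difference of 1.59 ± 0.23 (limma-trend adjusted p = 0.000764). Pgk1, phosphoglycerate kinase, was at 50.5 and 34.7 RPKM in Atf3KO and at 8.17 and 17.3 RPKM in JunDKO, a log2 difference of 1.73 (limma-trend adjusted p = 0.00241). The groups did not overlap in either gene. Pfkl (1.47), Eno1 (1.24), Tpi1 (1.05) and Pkm (1.28), which code for phosphofructokinase, enolase, triosephosphate isomerase and pyruvate kinase, were called as well, Pkm not after GC removal (0.98), and Eno1 and Tpi1 not without Atf3KO replicate 2. Slc16a3, the lactate exporter MCT4, is outside the list and was in the class with deposited levels only. It was chosen after its values were seen, and its difference was 2.84 (limma-trend adjusted p = 8.38e-05). Gapdh was listed at 0 and 26.8 RPKM in Atf3KO and at 0.456 and 0.576 RPKM in JunDKO, so its Atf3KO libraries disagreed and no call was made. Gapdh has many processed copies in the genome, and how reads that match several places were counted is not given in the sources used here.

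**Figure D4:**
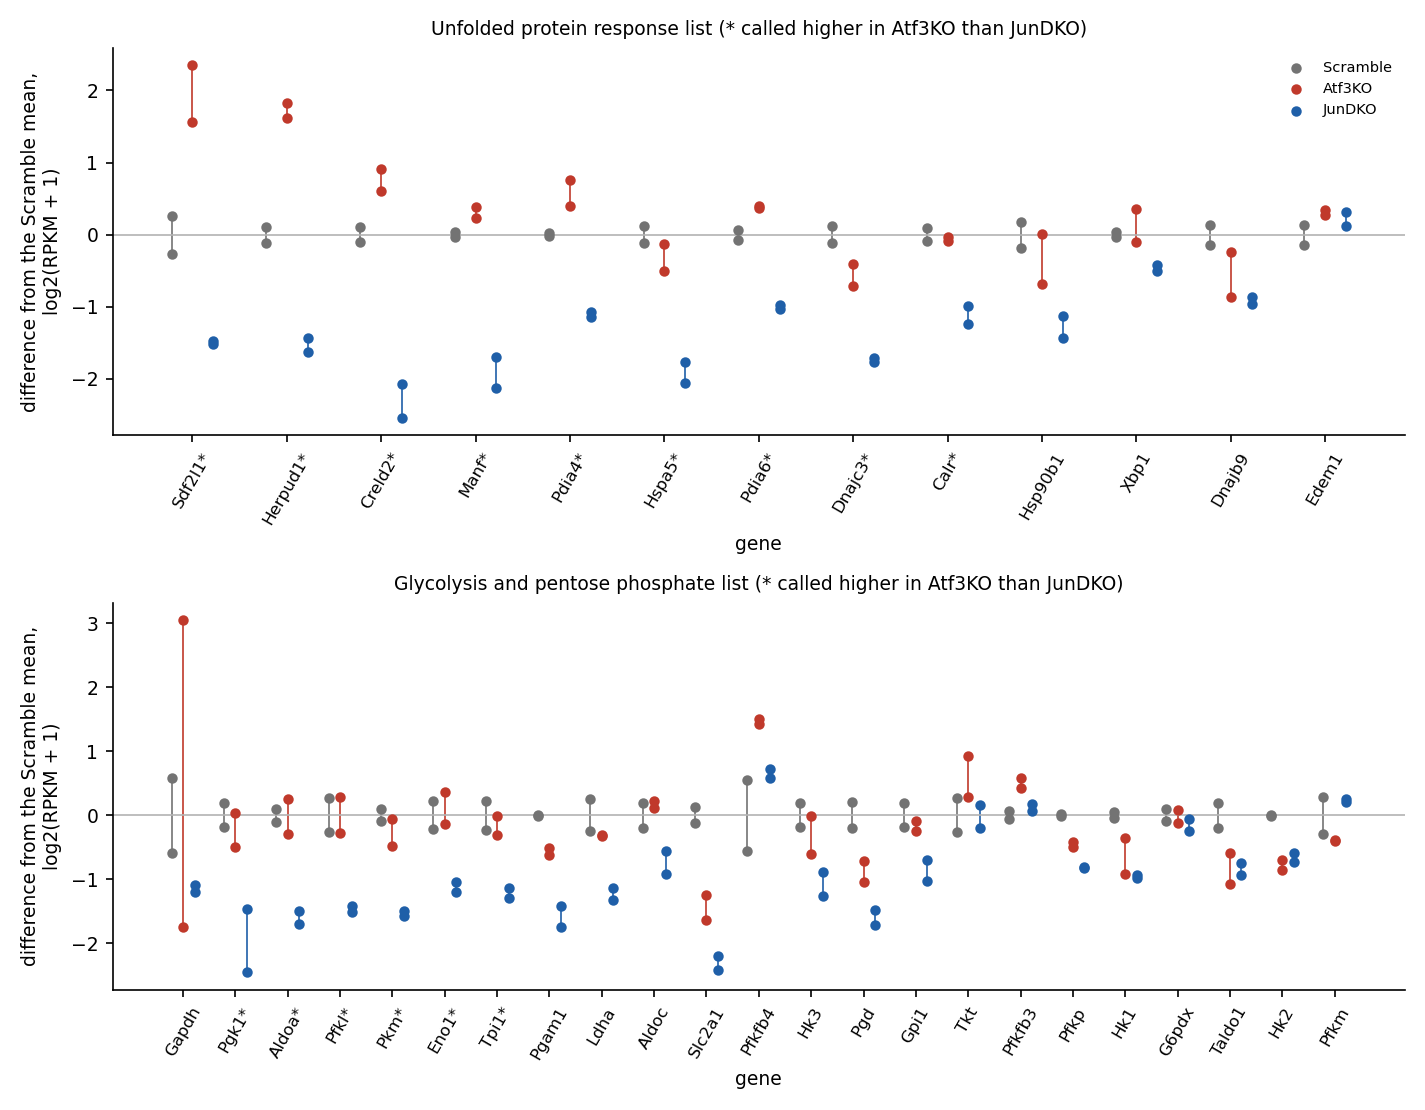
Difference of each library from the Scramble mean, on the log2(RPKM + 1) scale, for the tested members of the unfolded protein response and of the glycolysis and pentose phosphate lists, with 1 point a library and a star for genes called higher in Atf3KO than in JunDKO. The list medians are 0.30 and -1.28 for the unfolded protein response and -0.23 and -1.07 for glycolysis, in that order.

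The genes higher in JunDKO alone were led by Plau, which encodes the plasminogen activator urokinase. Plau was at 1.17 and 1.601 RPKM in Atf3KO, at 39.0 and 41.2 RPKM in JunDKO, and at 1.33 and 4.26 RPKM in Scramble, a log2 difference of -4.11 ± 0.35 (limma-trend adjusted p = 5.33e-05). JunDKO stood clear of all other libraries, and the Atf3KO and Scramble ranges overlapped. Gpr183, an oxysterol receptor that guides immune cells, was at 2.55 and 3.29 RPKM in Atf3KO, 43.8 and 41.2 RPKM in JunDKO and 4.23 and 4.97 RPKM in Scramble (log2 difference -3.48, limma-trend adjusted p = 1.3e-05). Cd83, a surface protein of activated antigen-presenting cells, was at 1.82 and 1.62 RPKM in Atf3KO and 27.2 and 25.9 RPKM in JunDKO (-3.34). Entpd1, the ectonucleotidase CD39, and Rcbtb2 had differences of -3.003 and -3.06. These 5 genes were in the class both ways. Ms4a4a was at 0 and 6.30 RPKM in Atf3KO and at 24.8 and 36.6 RPKM in JunDKO (-3.53 ± 0.74, limma-trend adjusted p = 0.00449). It was in the class with deposited levels only, and its wide error goes with the unlike Atf3KO libraries.

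The mitosis and G2/M list had a median above Scramble in both knockouts. It was 1.02 in Atf3KO and 1.77 in JunDKO, and the median direct difference over 21 tested members was -0.65. This was -0.31 after GC removal and -0.12 with Atf3KO replicate 2 left out as well. Ccnb2, Kif11, Birc5 and Cdk1 were called, all 4 higher in JunDKO than in Atf3KO with deposited levels and after GC removal, against 6.77% of all tested models called in that direction with deposited levels. After GC removal 5 members of the list were called in that direction, among them these 4. With deposited levels all 4 were higher in JunDKO alone, and after GC removal Kif11 and Birc5 were. Ccnb2, a mitotic cyclin, was at 6.99 and 6.14 RPKM in Atf3KO, at 39.6 and 40.1 RPKM in JunDKO, and at 7.45 and 2.29 RPKM in Scramble, a log2 difference of -2.43 ± 0.39 (limma-trend adjusted p = 0.00109). Birc5, or survivin, was at 17.4 and 20.3 RPKM in Atf3KO and at 53.3 and 78.5 RPKM in JunDKO (-1.73). The kinesin gene Kif11 and the cyclin-dependent kinase gene Cdk1 had differences of -2.0 and -1.49. The DNA replication and G1/S list did not share the direction: 3 of 20 members were called higher in Atf3KO, Ccne1, E2f1 and Gins2, and none lower, against 5.54% of all tested models called higher, and Gins2 was not called after GC removal (0.97) or without Atf3KO replicate 2. Of 10 D cyclins and CDK inhibitors, Ccnd3 and Cdkn1a were called higher in Atf3KO and none lower. Cdkn1a, the inhibitor p21, was at 372 and 368 RPKM in Atf3KO, at 87.4 and 77.0 RPKM in JunDKO and at 219 and 180 RPKM in Scramble, between the knockouts (2.16 ± 0.20, limma-trend adjusted p = 7.9e-05).

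Cd36, a scavenger receptor for oxidised lipoproteins and fatty acids, was among the genes lower in Atf3KO alone. It was at 12.3 and 8.29 RPKM in Atf3KO, at 135 and 145 RPKM in JunDKO, and at 110 and 156 RPKM in Scramble, and JunDKO lay within the Scramble range. The log2 difference was -3.66 ± 0.23 (limma-trend adjusted p = 1.29e-05) and -2.58 after GC removal. Clec7a, the beta-glucan receptor dectin-1, was at 17.2 and 9.05 RPKM in Atf3KO and at 59.95 and 57.4 RPKM in JunDKO, with 42.9 and 47.0 RPKM in Scramble (-2.14 ± 0.27, limma-trend adjusted p = 0.000341). In JunKO, which is outside the classes, Clec7a was at 15.1 and 18.3 RPKM, also below Scramble. Rap1a, a small GTPase, had a difference of -2.32, and Abca1, a cholesterol exporter, had one of -1.16 that was lost after GC removal (-0.80).

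The largest differences of this class were in genes with few or no reads in Atf3KO. Tceb1, which encodes elongin C, was at 0 and 0.437 RPKM in Atf3KO, at 50.2 and 63.5 RPKM in JunDKO and at 43.7 and 73.9 RPKM in Scramble. It had 3 reads over the Atf3KO libraries, and its read rate was 230 times higher in JunDKO, with a counting interval of 78.5 to 1117. Cox20, an assembly factor of cytochrome c oxidase, and Ndufa12, a complex I subunit, had no read in Atf3KO. Cox20 was at 20.4 and 34.0 RPKM in JunDKO and was at least 56.4-fold lower in Atf3KO, and Ndufa12 was at 17.4 and 20.6 RPKM and at least 43.8-fold lower. Ppp2cb, a catalytic subunit of phosphatase 2A, and Pcbd2 had differences of -3.95 and -3.73.

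Cox20 and Ndufa12 belonged to a wider set without reads in Atf3KO. Of 6473 models at 5 RPKM or more in each of the other 6 libraries, 25 had no read in either Atf3KO library, 23 of them protein-coding, among them Rpl31, Mrpl1, Mrpl35, Gabarapl2 and Il7r. The same count was 1 of 5929 for JunDKO, which was S100a8, and 0 for JunKO and for Scramble. The smaller number of models detected in Atf3KO moved with these genes, and its part in the class was not tested.

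The genes higher in Atf3KO alone were led by Usmg5, Rps29, Cebpd and Ppp1r35. Cebpd, a transcription factor of inflammatory gene expression, was at 33.8 and 94.3 RPKM in Atf3KO, at 4.28 and 5.43 RPKM in JunDKO and at 3.67 and 3.37 RPKM in Scramble, a log2 difference of 3.30 ± 0.39 (limma-trend adjusted p = 0.000257). Bbc3, which encodes the cell-death protein PUMA, was at 20.2 and 62.0 RPKM in Atf3KO and at 4.58 and 4.18 RPKM in JunDKO (2.77 ± 0.42, limma-trend adjusted p = 0.00083). Crlf2, a cytokine receptor chain, was at 27.8 and 70.3 RPKM and at 6.35 and 5.72 RPKM in the same order (2.69), in the class with deposited levels only. The groups did not overlap, but in all 3 genes Atf3KO replicate 2 was far above replicate 1, as it was for Jund. Usmg5, a small subunit of ATP synthase, was at 31.9 and 28.1 RPKM in Atf3KO and at 0 and 5.02 RPKM in JunDKO (3.66 ± 0.70, limma-trend adjusted p = 0.00275). Rps29 was listed at 0 in both Scramble libraries and at 0 and 0.986 RPKM in JunDKO, and its difference was 3.65. Without Atf3KO replicate 2 it was 3.18, with a level short of the 16 RPKM needed for a call.

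Among the genes on opposite sides of Scramble, those higher in Atf3KO were led by Saa3, Hp and Ccl12. Saa3, an acute-phase serum amyloid, was at 3573 and 3599 RPKM in Atf3KO, 88.3 and 109 RPKM in JunDKO and 1175 and 1172 RPKM in Scramble, a log2 difference of 5.18 ± 0.19 (limma-trend adjusted p = 9.75e-07). Hp, which encodes haptoglobin, was at 88.7 and 110 RPKM, 1.93 and 1.99 RPKM, and 12.0 and 8.73 RPKM in the same order (5.08 ± 0.22, limma-trend adjusted p = 2.22e-06). In both genes the libraries of a group lay close together and the 3 groups were far apart. Ccl12, a chemokine for monocytes, was at 35.5 and 20.8 RPKM in Atf3KO, at 0 and 0.102 RPKM in JunDKO (1 read) and at 11.7 and 13.2 RPKM in Scramble. Its read rate was 280 times higher in Atf3KO than in JunDKO, with a counting interval of 49.6 to 11134. Gdf15, a stress-induced cytokine, had a difference of 4.43, and of 3.58 without Atf3KO replicate 2, when its level fell short of the 16 RPKM needed for a call. For JunDKO against Scramble, Gdf15 differed by -1.09 (limma-trend adjusted p = 0.226), so its place below Scramble was within error.

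Ctla2b, H2afz, Thbs1 and Emp1 lay on opposite sides in the other direction. Ctla2b, a homologue of a protease propeptide, was at 11.1 and 4.45 RPKM in Atf3KO, at 394 and 414 RPKM in JunDKO and at 38.9 and 46.7 RPKM in Scramble. The 3 groups did not overlap, and the log2 difference was -5.64 ± 0.32 (limma-trend adjusted p = 8.04e-06). Ctla2b has a near-identical neighbour, Ctla2a, with which reads may have been shared. Thbs1, or thrombospondin-1, was at 0.273 and 0.332 RPKM in Atf3KO, 18.4 and 15.4 RPKM in JunDKO and 3.29 and 2.41 RPKM in Scramble (-3.78). H2afz, the histone variant H2A.Z, was at 0 and 1.67 RPKM in Atf3KO and 33.1 and 30.6 RPKM in JunDKO (-4.33). For JunDKO against Scramble, H2afz differed by 1.43 with a limma-trend adjusted p of 0.0634. Emp1, a membrane protein chosen after its values were seen and on opposite sides with deposited levels only, was at 19.6 and 13.6 RPKM in Atf3KO, 112 and 124 RPKM in JunDKO and 33.2 and 35.7 RPKM in Scramble (-2.78 ± 0.21, limma-trend adjusted p = 2.99e-05).

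The AP-1 site (TGAGTCA or TGACTCA, which are each other's reverse complement) was searched in the same promoter windows, because both targeted proteins bind it. Ctla2b and Emp1 were the 2 of 10 matched promoters (20%) with the site among genes lower in Atf3KO and higher in JunDKO. Their sequences are given from RefSeq (GRCm38.p6), 5′ to 3′ on the strand of the gene, with the site in capitals.
Ctla2b, chr13:60897544-60897630 (-): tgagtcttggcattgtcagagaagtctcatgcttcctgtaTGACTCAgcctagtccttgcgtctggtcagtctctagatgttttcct
Emp1, chr6:135362746-135362832 (+): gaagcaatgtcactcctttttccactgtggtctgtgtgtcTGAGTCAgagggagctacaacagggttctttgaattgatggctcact
The site was in 271 of all 8197 matched promoters (3.31%). It was in 5 of 59 (8.47%) of the genes lower in JunDKO alone, Aldoa, Ezr, Glrx, Hspa5 and Mgst2, in 1 of 52 (1.92%) of those higher in JunDKO alone, in 7 of 245 (2.86%) of those lower in Atf3KO alone and in 8 of 208 (3.85%) of those higher. None of the 13 matched promoters on opposite sides with a higher Atf3KO level held it. With counts this small, no class is set apart from the share of all promoters here. The cyclic AMP response element TGACGTCA was in 280 promoters (3.42%).

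Some AP-1 and related monomers were called between the knockouts. Of 11 tested members, 5 were called higher in Atf3KO (Jund, Atf5, Jdp2, Junb and Jun) and Fos lower, against 5.54% and 6.77% of all tested models. After GC removal Jund, Jdp2 and Fos remained called. Fos was at 2.40 and 7.81 RPKM in Atf3KO, at 17.0 and 18.3 RPKM in JunDKO and at 5.46 and 5.60 RPKM in Scramble, higher in JunDKO alone (-1.77 ± 0.38, limma-trend adjusted p = 0.00479). Jdp2, a repressor of the same family, was at 18.9 and 20.5 RPKM in Atf3KO and at 7.88 and 7.02 RPKM in JunDKO, higher in Atf3KO alone with deposited levels (1.29, limma-trend adjusted p = 0.00103). Jun had a difference of 1.04, close to the limit, and lost its call in 17 of 26 alternative analyses. Among 12 macrophage transcription factors, Cebpd and Bhlhe41 were called higher in Atf3KO and Cebpa lower. The Cebpa difference (-1.01) ran from -1.98 to -0.57 over 26 alternatives, and its call was kept in 18.

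Several genes of the macrophage lists were moved against Scramble in both knockouts, by different amounts. Mmp12, the macrophage elastase, was at 8.35 and 5.54 RPKM in Atf3KO and at 3.40 and 3.33 RPKM in JunDKO, both far under 119 and 142 RPKM in Scramble, and the difference between the knockouts was 0.84 (limma-trend adjusted p = 0.0154) and 1.76 after GC removal. Both knockouts were under the 16 RPKM needed for a call, so Mmp12 could not be called. Cxcl10, an interferon-induced chemokine, was at 5.20 and 4.80 RPKM in Atf3KO, 20.6 and 18.8 RPKM in JunDKO and 38.8 and 31.5 RPKM in Scramble (-1.79 ± 0.20, limma-trend adjusted p = 0.000185), lowest in Atf3KO. Ctsk, the collagen-degrading cathepsin K, was at 53.8 and 41.0 RPKM in Atf3KO, 0 and 1.21 RPKM in JunDKO and 98.8 and 95.1 RPKM in Scramble (5.01 ± 0.33), lowest in JunDKO. Lox, the collagen cross-linking lysyl oxidase, had the same order of groups (5.58), as did the stefin gene Stfa3 (4.96). Stfa3 was the 1 of 4 tested stefins called, against 5.54% of all tested models called higher in Atf3KO. Mrc1, the mannose receptor CD206, was at 16.4 and 12.2 RPKM in Atf3KO and at 62.7 and 63.2 RPKM in JunDKO, above 1.18 and 0.995 RPKM in Scramble (-2.07), and Pf4, F13a1 and Apoc2 were likewise above Scramble in both and highest in JunDKO.

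In the lists of surface receptors and secreted proteins, calls went both ways, as they did over all tested models (5.54% higher and 6.77% lower in Atf3KO). Their medians ran from -0.67 for Toll-like receptor genes and -0.50 for chemokines to 0.62 for iron-handling genes, and after GC removal these were -0.20, -0.068 and 0.59. The chemokine median was -0.018 without JunDKO replicate 1, -0.15 without Atf3KO replicate 2 and -0.79 without JunDKO replicate 2, and that of the Toll-like receptor genes was -0.32 without Atf3KO replicate 2. Among 10 scavenger receptors Marco was called higher in Atf3KO and Cd36, Mrc1 and Scarb2 lower, Scarb2 not after GC removal (-0.93). Of 14 iron-handling genes, Lcn2, Fth1 and the metal transporter gene Slc11a1 were called higher in Atf3KO, while the iron exporter ferroportin (Slc40a1, -1.77), Hfe and Ireb2 were called lower. Of these 6 genes, Lcn2, Fth1 and Slc40a1 kept their call after GC removal. Among 13 chemokines, Ccl2, Ccl6 and Ccl12 were called higher and Cxcl10, Cxcl14 and Pf4 lower, and among 13 cytokines and inflammatory mediators Saa3 and Nfkbia were higher, Nfkbia not without Atf3KO replicate 2, and Il18 lower. Il18, an inflammasome cytokine, was at 0.530 and 0 RPKM in Atf3KO and at 13.5 and 18.6 RPKM in JunDKO (-3.77 ± 0.28, limma-trend adjusted p = 2.73e-05). The Il18 call was lost when libraries were thinned to equal depth. Without JunDKO replicate 2 its level fell short of the 16 RPKM needed for a call. Of 12 matrix and protease genes, Spp1, Lox and Tgfbi were called higher and Thbs1 lower, and the Spp1 call (1.03) was lost without Atf3KO replicate 1 or JunDKO replicate 2, with differences of 0.48 to 1.73 over 26 alternatives. In addition, of 6 coagulation and plasminogen genes Plau and F13a1 were lower. Of the complement and Fc receptor genes, C3, Itgb2 and properdin (Cfp) were higher. Of 11 C-type lectin receptors Clec4a1 was higher and Clec7a, Clec4n and Mrc1 lower, of 19 Toll-like receptor genes and adaptors Irak3 was higher and Tlr4 lower, and of 14 ERK feedback genes Spred1 was lower. After GC removal 4 C-type lectin receptors were called higher and 2 lower, Clec4n was not called (-0.60), and Tlr4 was neither called nor of the same direction (0.055). Neither gene was called without Atf3KO replicate 2.

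**Figure D5:**
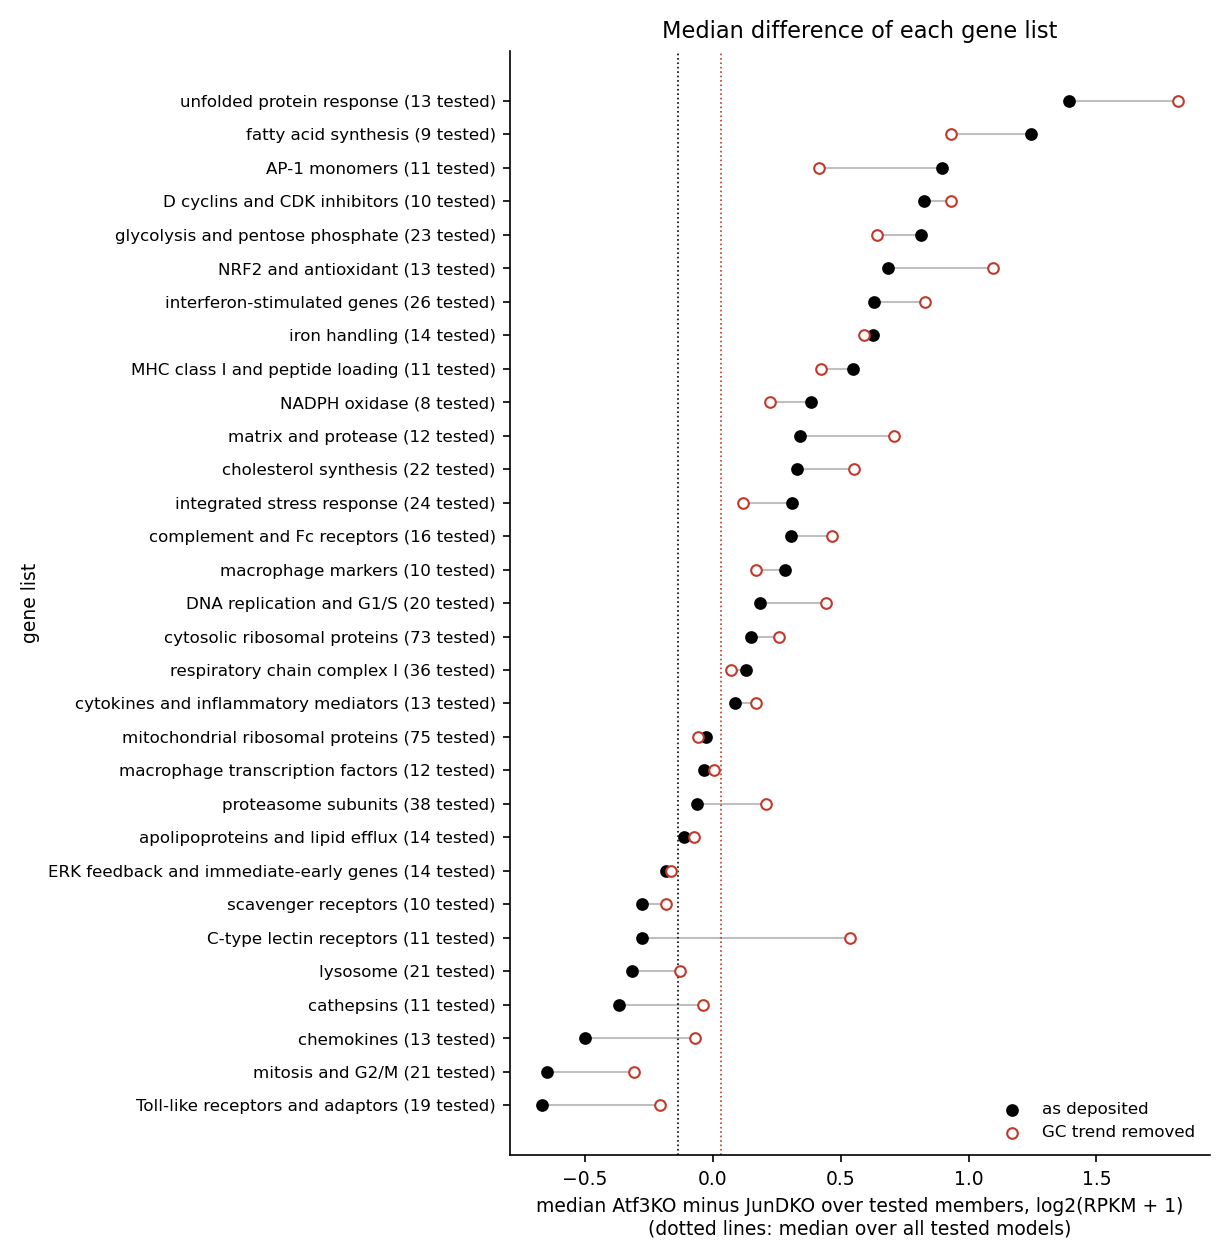
Median difference Atf3KO minus JunDKO, on the log2(RPKM + 1) scale, of each gene list with at least 8 tested members, with deposited levels (filled) and with the GC trend removed (open); dotted lines are the medians of all tested models. Among these lists the unfolded protein response has the highest median, 1.39 beside -0.14 for all models, and the C-type lectin receptors change sign, from -0.28 to 0.54.

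Of 26 tested interferon-stimulated genes, 7 were called higher in Atf3KO (Bst2, Usp18, Cmpk2, Isg15, Oasl2, Xaf1 and Dhx58) and Cxcl10 lower, against 5.54% and 6.77% of all tested models, with a median of 0.63 (0.83 after GC removal). Dhx58 was not called after GC removal. Isg15, a ubiquitin-like protein, was at 81.7 and 88.4 RPKM in Atf3KO, at 33.4 and 28.1 RPKM in JunDKO and at 45.5 and 48.2 RPKM in Scramble, between the knockouts (1.44 ± 0.18, limma-trend adjusted p = 0.000342). MHC class I genes had 4 of 11 called higher (H2-D1, H2-K1, H2-T23 and Tap1), against the same 5.54%, of which H2-D1 was also called after GC removal and without Atf3KO replicate 2, and of 4 MHC class II genes Cd74 was called higher, but not after GC removal. The NADPH oxidase list (8 tested) had Rac2 and Cyba higher and Rap1a lower, Cyba not after GC removal (0.48) or without Atf3KO replicate 2 (0.60). Rac2 was at 222 and 248 RPKM in Atf3KO and at 48.5 and 45.2 RPKM in JunDKO, with 180 and 118 RPKM in Scramble (2.30 ± 0.23, limma-trend adjusted p = 0.000122).

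The antioxidant genes that NRF2 controls had list medians below Scramble in both knockouts, -1.80 in Atf3KO and -2.01 in JunDKO. Gclm, a subunit of the enzyme that starts glutathione synthesis, was at 83.5 and 118 RPKM in Atf3KO, 41.2 and 45.0 RPKM in JunDKO and 359 and 405 RPKM in Scramble (1.19, limma-trend adjusted p = 0.00215). Gclm and Srxn1 were the 2 of 13 called between the knockouts, both higher in Atf3KO as were 5.54% of all tested models, and Gclm was not called without Atf3KO replicate 2 (0.94). Nqo1, a quinone reductase, was at 9.13 and 7.43 RPKM in Atf3KO and at 0 in both JunDKO libraries, with 7.38 and 12.1 RPKM in Scramble (limma-trend adjusted p = 6.89e-05), and was under the level needed for a call.

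Among lipid genes, fatty acid synthesis had 3 of 9 members called higher in Atf3KO, against 5.54% of all tested models, and none lower (Fasn, Srebf1 and Scd2), with a median of 1.24 (0.93 after GC removal), but only Scd2, a stearoyl-CoA desaturase, was called after it. Scd2 was at 134 and 119 RPKM in Atf3KO, 30.04 and 29.0 RPKM in JunDKO and 62.5 and 68.9 RPKM in Scramble (2.05 ± 0.17, limma-trend adjusted p = 4.3e-05), so the groups stood apart on either side of Scramble. Cholesterol synthesis had Mvd and Mvk higher and Sc5d lower among 22 tested, and none of the 3 was called after GC removal. Of 14 apolipoprotein and lipid efflux genes, Pltp and Abcg1 were called higher and Abca1, Apoc2, Lpcat3 and Lpl lower, Abca1 and Lpl not after GC removal (Lpl -0.97).

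The remaining lists had few calls, or calls in both directions. Of 24 genes of the integrated stress response, which acts through ATF4, Ddit4, Cebpb and Atf5 were called higher in Atf3KO and Asns, Gars, Nars and Mthfd2 lower. After GC removal Ddit4 and Asns remained called. Without Atf3KO replicate 2 the Ddit4 difference was 3.51, with a level short of the 16 RPKM needed for a call. With the GC trend removed and that library left out, the Asns difference was -0.83. Asns, asparagine synthetase, was at 38.5 and 28.5 RPKM in Atf3KO and at 87.5 and 77.9 RPKM in JunDKO, with 34.1 and 32.4 RPKM in Scramble (-1.29 ± 0.21, limma-trend adjusted p = 0.00114). Of 11 cathepsins Ctsk was higher and Ctsf and Ctsl lower, Ctsl not after GC removal (-0.69), and of the lysosomal genes Gpnmb was lower. Cytosolic ribosomal proteins had 7 of 73 called higher and 6 lower, mitochondrial ribosomal proteins 6 of 75 higher and 9 lower, complex I subunits 2 of 36 higher and 3 lower, and proteasome subunits 1 of 38 higher and 1 lower. Over all tested models the shares were 5.54% and 6.77%. The medians of these 4 lists were 0.15, -0.028, 0.13 and -0.059, close to 0. After GC removal the calls were 9 and 6, 8 and 7, 3 and 4, and 0 and 1 in the same order. Rplp2 was at 302 and 606 RPKM in Atf3KO and 99.4 and 51.7 RPKM in JunDKO (2.56), while Rpl13 was at 7.38 and 5.38 RPKM in Atf3KO and 30.9 and 58.0 RPKM in JunDKO (-2.57). Ribosomal protein genes have processed copies in the genome, and reads may have been split between them.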

How the data were processed

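PolyA RNA was sequenced from 8 libraries of iBMDMs, 2 a group, and the deposited values are RPKM, which the authors made by aligning reads to mm10 with STAR and counting exonic reads with HOMER (versions and strand setting are not given in the sources used here). RPKM is not a count, so limma-trend (limma 3.58.1, R 4.3.3) was fitted to log2(RPKM + 1), with 4 group coefficients over the 8 libraries (4 residual degrees of freedom, prior 5.66), and the contrast Atf3KO minus JunDKO was tested with Benjamini-Hochberg adjustment over all 10414 models. A fold on this scale understates the change of low genes. Left out were 277 models at the minimum level but shorter than 200 bases and 12708 longer models under the minimum level. Models that overlap on opposite strands could share reads. Whole reads were recovered from the steps of the RPKM values (100% of values of up to 50 reads were whole within 0.05), which gave depths, counting intervals (95%, exact) and the floor of 3 reads over a group; intervals cover counting error only.

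The GC trend of each library was removed with a natural spline of 5 degrees of freedom on exonic GC content, known for 99.5% of the models (GRCm38.p6, RefSeq), which also centres the libraries. Promoters of RefSeq genes were matched to 8197 models whose starts lay within 500 bases. Other steps used scipy 1.17.1, pandas 2.3.3 and numpy 2.4.6 in Python 3.11.15, with plots by matplotlib 3.10.9. The fit was tested on simulated data.

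Genes named were Atf3, Jund and Jun, the 6 protein-coding genes of each class (and of those on opposite sides) with the largest difference among those called both ways without overlap, up to 4 called members of each of 41 gene lists and every member of lists under 10 genes, and Mmp12, Marco, Fth1 and Cxcl10, which the study shows. Others (Hspa5, Calr, Pdia4, Pdia6, Dnajc3, Hsp90b1, Derl3, Emp1, Gapdh, Eno1, Tpi1, Slc16a3, Ccl2, Nqo1, Abca1 and further called list members) were chosen after their values were seen. The comparison, its members and the lists were chosen with earlier results of these data known, some by the study on these samples, so list counts are not independent evidence. Alternatives changed the pseudocount, filters, scaling, GC and length terms, weights, depth, thresholds, libraries and the test (limma-voom on the recovered reads, which called 1475 genes), and are given under the dependence on processing. Some results of the complement and lysosome lists are not reported here. Replicate numbers were not taken to pair the libraries, since those of Atf3KO and JunDKO did not deviate together.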

Additional observations from a re-analysis of the deposited data

How the results depend on the processing

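The number of genes called between Atf3KO and JunDKO was 1282, and the number in the classes of 1 knockout alone was 711. With no minimum level the counts were 3060 and 1721, and with a 4-fold limit 223 and 94. Leaving out 1 library at a time gave 991 to 1749 called genes and 517 to 1054 in the classes, the highest without Atf3KO replicate 1 and the lowest without JunDKO replicate 2. In every other alternative both counts stayed within 1.5 times, from 890 to 1475 called genes, with the GC trend removed near the lower end (893 and 481). The share of calls higher in Atf3KO was 45.0% with deposited levels and 35.1% with no minimum level. It was 60.1% with equal medians, 59.3% with a length trend removed and 60.8% with the GC trend removed. The alternative named GC and date below removed the GC trend and left out Atf3KO replicate 2, the library with the later date. No date term was fitted. The median difference over all models went from -0.14 to 0.0087 with equal library medians, which sets it near 0.

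Deviations of libraries with the same replicate number correlated at -0.17 between Atf3KO and JunDKO, -0.27 between Atf3KO and Scramble and -0.29 between Atf3KO and JunKO, and at 0.24, 0.25 and 0.29 among Scramble, JunKO and JunDKO. The numbers were therefore not taken to pair the 2 knockouts compared, though those of the other 3 groups deviated together. With the replicate number as a block, 1264 genes were called and 700 were in the classes (897 and 484 with the GC trend removed as well), and with the pairing crossed 1313 were called. Of 134 named genes called, 89 kept the call in every alternative run, and losses were most frequent with GC and date (32), without Atf3KO replicate 2 (23), with GC (22) and without JunDKO replicate 2 (18). Direction turned for 8 of the 152 named genes: Ireb2 (0.16 with GC and date) and Tlr4 (0.055 with GC, 0.067 with GC and length, 0.055 with the block and GC, 0.24 with GC and date) among those called, and, among those not called, Ncf4 (-0.032, -0.050, -0.032 and -0.055 in the same order, -0.039 to 0.43 with libraries left out), Rac1 (0.026 with GC and date), Acly (0.093 with equal medians, 0.24 with length, -0.18 to 0.043 with libraries left out), Elovl6 (0.33, 0.34, 0.33 and 0.50 in the same order as Tlr4, 0.091 with length, -0.59 to 0.050 with libraries left out), Fads1 (-0.028 to 0.29 with libraries left out) and Gapdh (-0.60 without Atf3KO replicate 2 to 4.198 without replicate 1, -0.65 with GC and date). The causes were not tested. Leaving out a replicate leaves 1 library in a group, assumed to vary like the others.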

Other observations

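Some genes of the lists moved in the same direction in both knockouts and yet differed between them. Apoc2, an activator of lipoprotein lipase, was at 131 and 169 RPKM in Atf3KO, at 638 and 519 RPKM in JunDKO and at 8.21 and 8.23 RPKM in Scramble (log2 difference between the knockouts -1.94, limma-trend adjusted p = 0.000228). F13a1, a clotting factor subunit that macrophages also make, was at 31.7 and 23.6 RPKM, 84.4 and 100.7 RPKM, and 1.22 and 0.609 RPKM in the same order (-1.72). Pf4, the chemokine CXCL4, was at 47.2 and 54.8 RPKM in Atf3KO and at 258 and 297 RPKM in JunDKO, with 10.7 and 21.0 RPKM in Scramble (-2.42). In these 3 genes both knockouts stood above Scramble and JunDKO stood highest. The stefin model 2010005H15Rik was the other way round, with 0 RPKM in both Atf3KO libraries and 1.24 and 1.25 RPKM in JunDKO, against 64.6 and 132 RPKM in Scramble, with a difference between the knockouts of -1.17 (limma-trend adjusted p = 0.0377). Both knockouts were under the 16 RPKM needed for a call.

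The chemokine genes Cxcl14 and Ccl2 differed between the knockouts in opposite directions. Cxcl14 was at 8.62 and 9.56 RPKM in Atf3KO, 27.6 and 33.7 RPKM in JunDKO and 3.70 and 6.10 RPKM in Scramble (-1.64, limma-trend adjusted p = 0.000998). Ccl2, the monocyte chemokine MCP-1, was at 49.4 and 43.0 RPKM in Atf3KO, 12.9 and 16.4 RPKM in JunDKO and 29.8 and 32.1 RPKM in Scramble, and was placed lower in JunDKO alone with deposited levels and on opposite sides of Scramble after GC removal.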
